A study of Mus musculus with 27 samples.

Results

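Meiotic prophase chromosome genes are here a list of 33 mouse gene symbols whose products build, break, pair and repair chromosomes during the first meiotic division, or commit germ cells to it. They were chosen by symbol, and a listed symbol was a member where it stood among the raw counts of a table: 32 of the 33 did so in at least 1 of 4 tables, of 20847 gene symbols in all. Expression of Rnf212, a crossover factor, is not analysed here, and Meioc was found under its older symbol Gm1564. RNA was sequenced from mouse cells that lacked the writer or readers of m6A (N6-methyladenosine), which marks mRNA with a methyl group on adenosine. Mettl3 encodes the catalytic subunit of the writer complex, and Ythdf1, Ythdf2 and Ythdf3 encode cytoplasmic proteins that bind the mark.

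The 27 libraries form 12 groups. Embryonic stem cells of the KH2 line, with a C57BL/6 x 129/Sv background, were grown in serum with LIF and gave 2 poly(A) libraries a group: the triple knockout Ythdf1-/-Ythdf2-/-Ythdf3-/-, Mettl3-/-, Ythdf1-/-, Ythdf2-/-, Ythdf3-/- and wild type (WT). Oocytes with an intact germinal vesicle (GV) were profiled by SMART-seq2, as 3 libraries from Mettl3f/f Zp3-Cre+ females (conditional knockout) and 4 from Mettl3f/f Zp3-Cre- controls, so both groups carried the floxed allele. Their background was BDF1 X C57BL/6 X Jax#003651, and the Zp3 promoter drives Cre in growing oocytes alone, after pairing and recombination in the fetal ovary. Post-GV oocytes gave 2 Ythdf2-/- and 3 Ythdf2+/- libraries, and FACS-sorted round spermatids gave 2 Ythdf2-/- and 1 Ythdf2+/+ Ribo-Zero libraries, both on a CB6F1 X C57BL/6 background. The oocyte protocol collected oocytes mouse by mouse, whereas nothing in the labels says that stem cell replicates came from separate clones or cultures, so their p-values measure the spread between libraries alone, which may be technical.

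In meiotic prophase, cohesin complexes with germline subunits organise each chromosome into loops along an axis, programmed DNA breaks are made and repaired on the homologous partner, and the synaptonemal complex zips the paired axes together. The genes are silent or low in most other cells; in embryonic stem cells many of their promoters are held down by complexes of MGA, MAX, E2F6 and PCGF6, which bind E-box and E2F letters, and by DNA methylation. Oocytes finish pairing and recombination before birth and then arrest with the germinal vesicle intact, and round spermatids have already passed both divisions.

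Promoter windows from 250 bases before to 50 bases after the gene start were read for 29 of the 33 genes from RefSeq (GRCm38.p6). Sycp1, Hormad1 and Stag3 are shown because they rose in the stem cell triple knockout and hold both motifs discussed below, and Syce1 and Hormad2 because they changed in stem cells and GV oocytes and hold neither. Each is written 5′ to 3′ on the strand of its gene. Capitals mark the E-box CACGTG and the E2F core GCGGGA or its complement TCCCGC.
Sycp1 (chr3:102936051-102936350, minus strand): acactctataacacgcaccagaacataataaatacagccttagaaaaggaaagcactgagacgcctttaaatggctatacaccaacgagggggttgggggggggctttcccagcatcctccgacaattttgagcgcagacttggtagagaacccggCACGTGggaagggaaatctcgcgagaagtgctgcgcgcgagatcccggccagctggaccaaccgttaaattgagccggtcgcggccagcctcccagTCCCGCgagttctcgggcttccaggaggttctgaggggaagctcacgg
Hormad1 (chr3:95559427-95559726, plus strand): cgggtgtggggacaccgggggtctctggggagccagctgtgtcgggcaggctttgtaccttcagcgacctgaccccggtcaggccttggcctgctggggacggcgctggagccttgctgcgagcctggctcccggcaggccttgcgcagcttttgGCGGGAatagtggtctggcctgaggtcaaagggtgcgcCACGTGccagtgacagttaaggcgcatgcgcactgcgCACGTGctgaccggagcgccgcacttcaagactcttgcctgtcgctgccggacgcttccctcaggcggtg
Stag3 (chr5:138280259-138280558, plus strand): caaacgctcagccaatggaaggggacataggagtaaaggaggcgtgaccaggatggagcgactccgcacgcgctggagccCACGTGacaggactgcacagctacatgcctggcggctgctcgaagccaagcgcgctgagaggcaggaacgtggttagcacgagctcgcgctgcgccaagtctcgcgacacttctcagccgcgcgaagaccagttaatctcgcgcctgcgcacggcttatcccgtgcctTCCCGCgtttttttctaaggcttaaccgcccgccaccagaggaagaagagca
Syce1 (chr7:140787805-140788104, minus strand): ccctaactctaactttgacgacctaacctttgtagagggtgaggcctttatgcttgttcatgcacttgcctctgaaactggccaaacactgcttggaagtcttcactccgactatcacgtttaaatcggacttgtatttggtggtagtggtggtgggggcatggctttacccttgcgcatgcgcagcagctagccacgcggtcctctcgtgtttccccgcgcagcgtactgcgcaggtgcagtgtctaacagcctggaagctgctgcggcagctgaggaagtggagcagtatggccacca
Hormad2 (chr11:4441033-4441332, minus strand): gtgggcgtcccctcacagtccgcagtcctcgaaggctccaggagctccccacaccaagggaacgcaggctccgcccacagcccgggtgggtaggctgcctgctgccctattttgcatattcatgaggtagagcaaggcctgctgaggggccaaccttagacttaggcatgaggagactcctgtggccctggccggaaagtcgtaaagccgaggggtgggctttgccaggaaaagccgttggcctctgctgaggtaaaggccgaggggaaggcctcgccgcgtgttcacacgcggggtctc

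In Sycp1 the E-box began 94 bases before the start and TCCCGC 2 bases after it, and in Stag3 the E-box began 170 bases and TCCCGC 2 bases before the start. Hormad1 held E-boxes 57 and 20 bases before its start and GCGGGA 95 bases before it. Within these windows no capital stretch overlaps another. Both strands were searched, and a gene was counted once however many of its promoters matched. The E-box stood in 8 of 29 listed genes (27.6%), Rnf212 among the 29, against 8.09% of all 27025 genes with a window. An E2F core stood in 16 of 29 (55.2%), against 22% of all genes. One promoter held both in 7 of 29 (24.1%), against 2.32% of all genes: Hormad1, Rnf212, Stag3, Syce2, Sycp1, Sycp3 and Tex12. The letters CNCCTCAG, the motif bound by the STRA8 partner MEIOSIN, stood in 7 of 29 (24.1%), Sycp1 and Hormad2 among them, against 9.12% of all genes. The median ratio of observed to expected CpG was 0.708 over 34 promoters of listed genes and 0.384 over 32851 promoters. Of the genes with both motifs, Syce2 and Sycp3 were tested in the triple knockout and not called. Smc1b, Meioc, Hfm1, Stra8, Dpep3 and Syce1 rose there without an E-box in their windows. The motif matches describe letters in a window and no binding, and their part in the rises was not tested.

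The stem cell libraries were the shallowest, with totals of 612598 to 1111764 counts over genes. Totals were 6484397 to 18181397 for GV oocytes, 12409822 to 25015081 for post-GV oocytes, and 18843689 to 32759740 counts for spermatid libraries. Levels below are CPM (counts scaled to library size) after TMM scaling, and log2 changes are given ± standard error. A gene is called, and said to have risen or fallen, at an adjusted p under 0.05 by edgeR's quasi-likelihood test with Benjamini-Hochberg adjustment across every tested gene of a table. Where groups are said not to overlap, or libraries to lie on one side, this describes their order alone. With so few libraries a group, such an order can arise without a change, and its share over all tested genes is not given here. Mettl3 itself stood at 18.1 and 15.2 CPM in knockout stem cells, against 141 and 137 CPM in WT stem cells, and at 3.47, 1.35 and 0.901 CPM in conditional knockout GV oocytes, against 41.7, 28.1, 13.2 and 25.8 CPM in controls. Ythdf transcripts were not called lower in any Ythdf knockout, and counts over a whole gene check nothing where the deleted part is not given. In all 6 stem cell pairs the replicates differed by less than counting error (mean chi-square per gene 0.704 to 0.844), and the highest gene held 0.163 to 0.182% of a library, against 0.701 to 3.85% in the other tables, so stem cell p-values may be too small. How the stem cell counts came to be so even was not stated, and the sizes of their levels and folds carry that doubt too. In the spliced annotation Sycp3 shares 660 exon bases, 52.2% of its exon length, with Chpt1 on the opposite strand, and Spata22 shares 80.5% with Gm49340. Since the sources used here give no strand setting for the counting, Sycp3 and Spata22 counts are uncertain.

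Before any knockout, the members' levels differed by tissue. Per kilobase of exon, WT stem cells held most Sycp3 (101 CPM per kb), Stra8 (82.8), Syce2 (61.7) and Syce1 (57.4), and least Smc1b (1.33). Control GV oocytes held most Syce2 (242 CPM per kb), which encodes a central element protein, then Tex12, its binding partner (44.3), and Tex15 (39.0), with Rec8 at 0.00797. The WT spermatid library held most Syce1 (1055 CPM per kb), Smc1b (235) and Stag3 (115). Stem cells, GV oocytes and spermatids were made with different library methods and tested apart, so these orders are descriptions within each tissue.

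In stem cells without the 3 YTHDF readers, 10 of 21 tested members rose and 1 fell. They took in the synaptonemal complex (Sycp1, Syce1), the axis (Hormad1), cohesin (Smc1b, Stag3), the meiotic switch (Stra8, Meioc), a crossover helicase (Hfm1) and 2 other germ cell genes (Dpep3, Taf7l). Over all 11951 tested genes 25.1% were called, 13.3% higher and 11.8% lower. The members' median log2 change was 0.43, against -0.00 over all tested genes. Smc1b and Spata22 passed the filter on low counts in the triple knockout alone of these 2 groups, so members that passed do not stand for the whole list. In bulk RNA, more cells with a transcript and more RNA per cell cannot be told apart.

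Sycp1, the transverse filament of the synaptonemal complex (chr3:102818499-102936100), had 84.2 and 98.6 CPM in triple-knockout cells, against 34.2 and 32.1 CPM in WT cells. Both triple-knockout libraries stood above both WT libraries, and the rise was 1.47 ± 0.17 (adjusted p = 2.36e-10). Syce1, a central element protein (chr7:140777229-140787852), had 170 and 148 CPM in triple-knockout cells, against 91.0 and 76.7 CPM in WT cells (0.92 ± 0.12, adjusted p = 1.01e-08). Syce2 stood at 123 and 129 CPM in triple-knockout cells, against 120 and 123 CPM in WT cells, and was not called. So of the listed zipper genes tested here the filament gene and 1 of 2 central element genes rose. Hormad1, a HORMA-domain protein of unsynapsed axes (chr3:95559677-95587671), had 161 and 146 CPM in triple-knockout cells, against 77.5 and 58.0 CPM in WT cells (1.18 ± 0.13, adjusted p = 5.43e-12). Its paralogue Hormad2 (chr11:4345814-4441105) had 20.3 and 32.9 CPM in triple-knockout cells, against 43.2 and 54.4 CPM in WT cells, without overlap in the other direction. Hormad2 fell by 0.85 on the log2 scale (SE 0.23, adjusted p = 0.00776). The axis core gene Sycp3 at 101 and 114 CPM against 113 and 143 CPM in WT cells, and Trip13, the ATPase that strips HORMA proteins off synapsed axes, at 150 and 155 CPM against 146 and 141 CPM in WT cells, were not called. The Hormad2 call was lost without WT replicate B (-0.68, adjusted p = 0.113) and without triple-knockout replicate A (-0.57, adjusted p = 0.224).

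Among germline cohesin subunits, Smc1b, the meiotic partner of SMC3 (chr15:85064689-85131964), had 12 and 13 counts in triple-knockout cells, against 6 and 6 counts in WT cells. These are 18.7 and 17.8 CPM against 5.41 and 5.35 CPM in WT cells, low but not overlapping (1.73 ± 0.47, adjusted p = 0.00341). Of these 2 groups Smc1b entered the test through the triple knockout alone, where it is high, so its call had a difference built in. The Smc1b call was lost with DESeq2. Stag3, the meiotic SA subunit (chr5:138280240-138312393), had 90.5 and 103 CPM in triple-knockout cells, against 51.3 and 67.8 CPM in WT cells (0.70 ± 0.15, adjusted p = 0.000854). Rec8, the meiotic kleisin that holds sister chromatids, was not called at 85.8 and 79.4 CPM against 69.4 and 67.8 CPM in WT cells. The Stag3 call was lost without WT replicate A (0.51, adjusted p = 0.0637) and without triple-knockout replicate B (0.60, adjusted p = 0.0652). Stra8, the retinoic acid target that starts the meiotic programme (chr6:34920163-34939344), had 221 and 192 CPM in triple-knockout cells, against 154 and 144 CPM in WT cells (0.46 ± 0.10, adjusted p = 0.000894). Meioc, the partner of YTHDC2 that keeps cells in prophase (chr11:102663716-102682237), had 32.8 and 35.6 CPM in triple-knockout cells, against 14.4 and 10.7 CPM in WT cells (1.44 ± 0.29, adjusted p = 0.00023). Both induction genes thus rose. The Stra8 call was lost without triple-knockout replicate A (0.36, adjusted p = 0.0854).

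Hfm1, a helicase of crossover formation (chr5:106840192-106926321), had 42.1 and 41.1 CPM in triple-knockout cells, against 17.1 and 10.7 CPM in WT cells (1.57 ± 0.27, adjusted p = 9.3e-06). Dpep3, a membrane dipeptidase of the testis (chr8:105973513-105979429), had 56.2 and 60.2 CPM in triple-knockout cells, against 21.6 and 24.1 CPM in WT cells (1.35 ± 0.21, adjusted p = 2.76e-06). Taf7l, the germ cell form of the TFIID subunit TAF7 (chrX:134460118-134476490), had 68.6 and 64.3 CPM in triple-knockout cells, against 48.6 and 39.2 CPM in WT cells (0.59 ± 0.18, adjusted p = 0.0243). All 3 stood above WT in both libraries, but the Taf7l call was lost without WT replicate B (0.44, adjusted p = 0.209) and without either triple-knockout library (A 0.55, adjusted p = 0.152; B 0.64, adjusted p = 0.0942). Other tested members, Dmc1, Spata22, Tex15, Mlh3, Tex11 and Tex14 among them, ranged from -0.46 (Tex15) to 0.43 (Spata22) and were not called. Tex12 and Meiob were too low to be tested: Tex12 had 8 and 10 counts in triple-knockout cells, against 1 and 6 counts in WT cells, and Meiob had 9 and 7 counts, against 6 and 1 counts in WT cells. Syce3 and Mei4 were also untested, and 8 symbols, such as Sycp2, Spo11 and Prdm9, were not analysed in stem cells. DESeq2 called 5 members of the 11, Sycp1, Syce1, Hormad1, Hfm1 and Dpep3, and these 5 were the ones called in every alternative run.

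**Figure D1:**
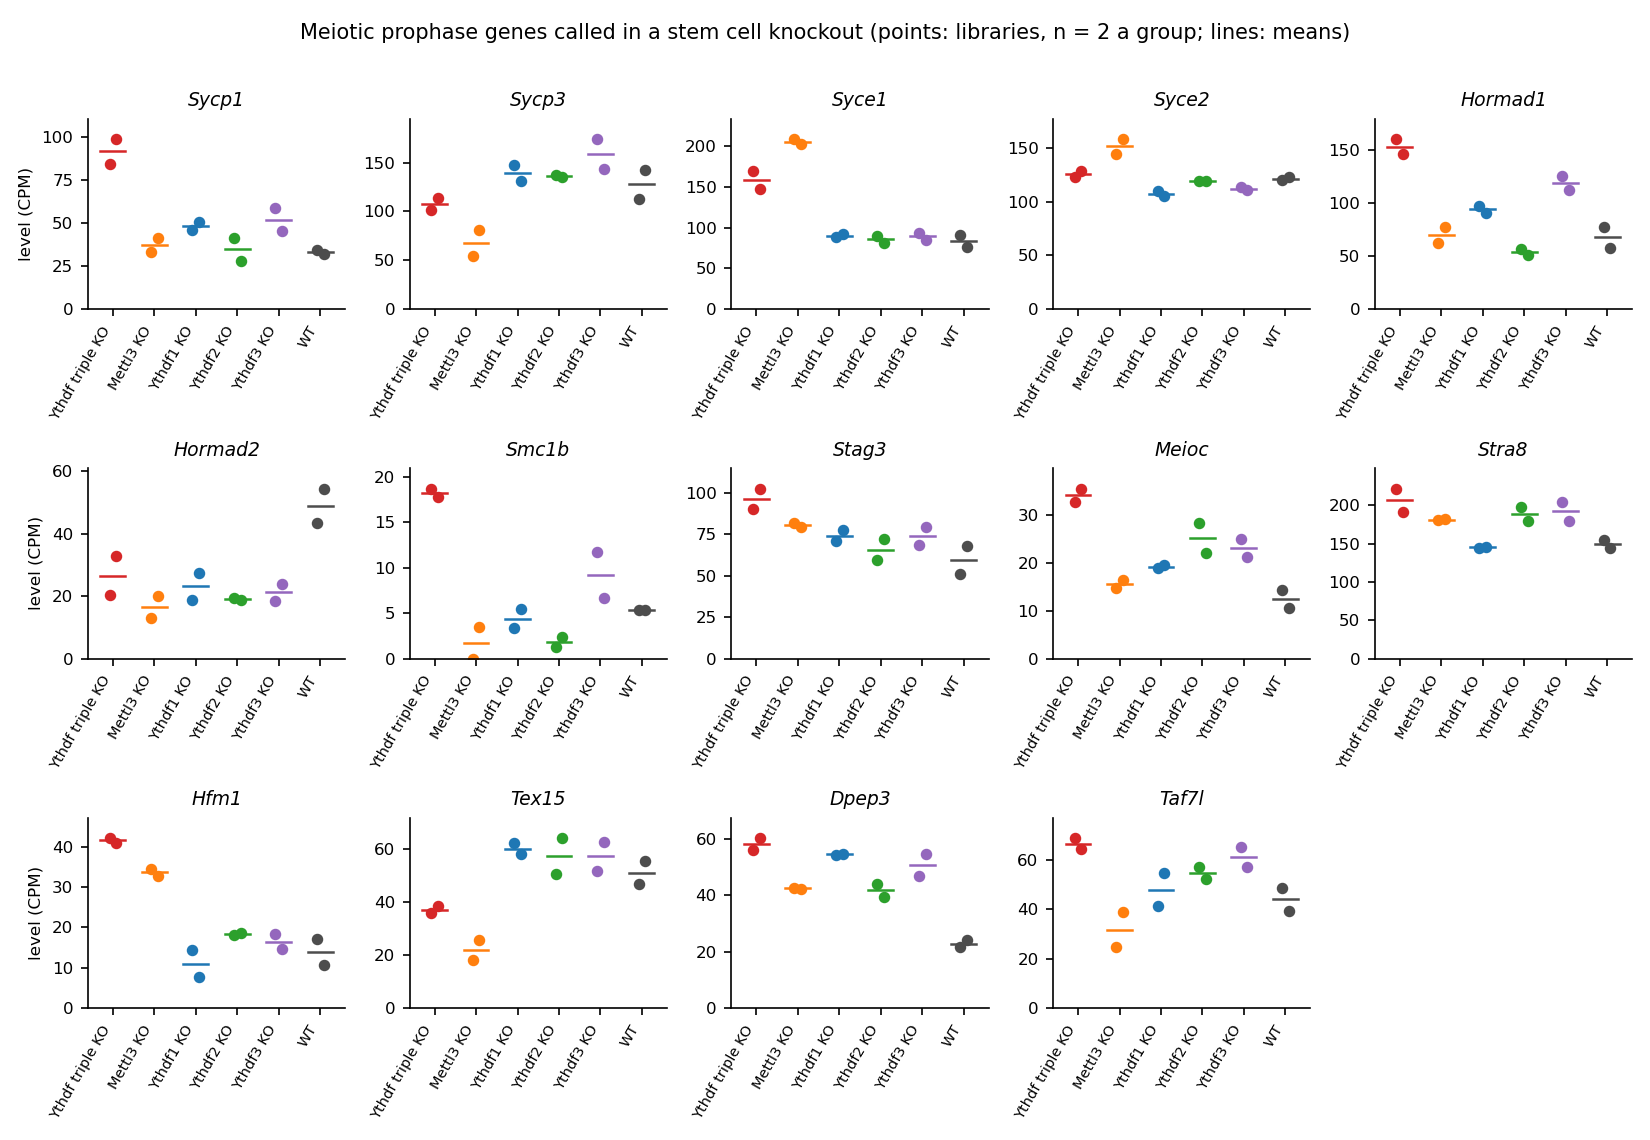
Levels (CPM, linear axis from 0) of the 14 members called in any stem cell knockout against WT. Each point is 1 library (2 a group) and each line a group mean. Sycp1 (84.2 and 98.6 CPM), Smc1b (18.7 and 17.8 CPM) and Hfm1 (42.1 and 41.1 CPM) are highest in the triple knockout, Syce1 in the Mettl3 knockout (209 and 203 CPM), and Hormad2 in WT (43.2 and 54.4 CPM).

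Genes of the same programme outside the list were followed in 4 lists. Of 13 tested other meiotic prophase genes, 9 rose in the triple knockout and 0 fell, with a median of 0.90: Cntd1, a cyclin-like crossover factor (1.43 ± 0.29, adjusted p = 0.000147), Six6os1, a central element protein (1.10 ± 0.20, adjusted p = 1.79e-05), and Zcwpw1, a reader of PRDM9 marks (0.90 ± 0.16, adjusted p = 7.8e-05), were among them, as was Psmc3ip (0.47 ± 0.10, adjusted p = 0.00234). Of 8 tested primordial germ cell genes 3 rose and 0 fell: Dppa3 (2.10 ± 0.15), Dazl (1.52 ± 0.10) and Ddx4 (1.37 ± 0.24). Of 15 mitotic counterparts, the housekeeping cohesin and mismatch repair genes, 2 rose (Msh6 0.46 ± 0.06, Rad21 0.34 ± 0.09) and 2 fell (Stag1 -0.80 ± 0.18, Smc1a -0.39 ± 0.10), with a median of -0.04. Of 16 repressors of germline genes 2 rose, L3mbtl2 (0.32 ± 0.09) and Ehmt1 (0.50 ± 0.14), and 0 fell; Mga, Max, E2f6 and Pcgf6 were not called. Markers of 2-cell-like cells, all 8 detected in every library, summed to 933 and 953 CPM in triple-knockout cells, against 52.2 and 45.5 CPM in WT cells. The 3 detected of 6 Sertoli cell markers summed to 324 and 319 CPM against 99.99 and 103 CPM in WT cells, with Rhox5 higher (a mean of 285 CPM in triple-knockout cells and 55.6 CPM in WT cells) and Clu lower (25.7 CPM in triple-knockout cells and 43.4 CPM in WT cells), and the 2 detected of 8 oocyte markers to 74.9 and 72.5 CPM against 36.9 and 32.1 CPM in WT cells. Their part in the members' rises was not tested. Stem cell markers summed to 3274 to 3800 CPM over all 12 libraries.

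In Mettl3-/- stem cells 4 of 21 tested members rose (Syce1, Syce2, Hfm1, Dpep3) and 3 fell (Sycp3, Hormad2, Tex15). Over all tested genes 30.4% were called, 15.2% higher and 15.1% lower. The members' median log2 change was 0.07, against -0.00 over all tested genes, so neither direction prevailed. This contrast shares its WT libraries with the other stem cell contrasts.

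Syce1 had 209 and 203 CPM in Mettl3 knockout cells, against 91.0 and 76.7 CPM in WT cells (1.29 ± 0.11, adjusted p = 1.22e-16), its highest level in stem cells. Syce2 had 145 and 158 CPM in Mettl3 knockout cells, against 120 and 123 CPM in WT cells (0.33 ± 0.10, adjusted p = 0.0421). Hfm1 had 34.5 and 32.8 CPM in Mettl3 knockout cells, against 17.1 and 10.7 CPM in WT cells (1.26 ± 0.28, adjusted p = 0.000736). In each of these the groups did not overlap, but the Syce2 call was lost when any 1 of the 4 libraries was left out (0.24 to 0.38, adjusted p 0.0577 to 0.370). Dpep3 had 42.7 and 42.2 CPM in Mettl3 knockout cells, against 21.6 and 24.1 CPM in WT cells (0.89 ± 0.22, adjusted p = 0.00568). The Dpep3 call was lost without Mettl3 knockout replicate B (0.89, adjusted p = 0.0635) and without WT replicate A (0.81, adjusted p = 0.0521). Sycp3, the core of the lateral element (chr10:88459569-88473236), had 54.2 and 80.8 CPM in Mettl3 knockout cells, against 113 and 143 CPM in WT cells, and fell by 0.87 on the log2 scale (SE 0.14, adjusted p = 8.92e-07). Chpt1, on the other strand of the same exons, rose (0.63 ± 0.11, adjusted p = 4.79e-05). Hormad2 had 13.1 and 19.9 CPM in Mettl3 knockout cells, against 43.2 and 54.4 CPM in WT cells (-1.51 ± 0.25, adjusted p = 3.04e-06). Tex15, a germ cell protein needed for break repair and transposon silencing (chr8:33516738-33585582), had 18.1 and 25.8 CPM in Mettl3 knockout cells, against 46.8 and 55.3 CPM in WT cells (-1.17 ± 0.22, adjusted p = 0.000106). All 3 genes that fell had both knockout libraries below both WT libraries, an order whose share over all tested genes is not given here. Hormad1 at 62.4 and 77.3 CPM against 77.5 and 58.0 CPM in WT cells and Sycp1 at 32.9 and 41.0 CPM against 34.2 and 32.1 CPM in WT cells overlapped between groups and were not called. Smc1b had 0 and 3 counts in Mettl3 knockout cells, against 6 and 6 counts in WT cells, a ratio of 0.382 with a 95% counting interval of 0.0691 to 1.41.

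Of 13 other meiotic prophase genes 6 rose and 1 fell in Mettl3 knockout cells, with a median of 0.40. The largest were Brme1, a meiotic recombination factor (2.24 ± 0.39, adjusted p = 4.29e-06), and Ccnb1ip1, a crossover ubiquitin ligase that fell by 1.46 (SE 0.23, adjusted p = 3.05e-06). Mnd1, a partner of PSMC3IP (0.73 ± 0.12), and Fignl1 (0.51 ± 0.10) rose. Of 8 primordial germ cell genes 4 rose and 0 fell (Dppa3 1.71 ± 0.16, Tfap2c 1.18 ± 0.12, Ddx4 0.93 ± 0.25, Prdm14 0.48 ± 0.11). Of 15 mitotic counterparts 4 rose and 3 fell (among them Pds5a 0.33 ± 0.08, Pds5b 0.66 ± 0.17 and Msh3 -0.62 ± 0.14), and of 16 repressors 1 rose (Ring1, 1.35 ± 0.20) and 1 fell (Atf7ip, -0.38 ± 0.12). Markers of 2-cell-like cells summed to 54.2 and 65.6 CPM in Mettl3 knockout cells, against 52.2 and 45.5 CPM in WT cells. DESeq2 called 4 of the 7 members, Syce1, Sycp3, Hormad2 and Tex15.

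Set directly against Mettl3 knockout cells, triple-knockout cells had 6 of 21 members higher and 1 lower. Of all tested genes 19.0% were called, 10.5% higher and 8.50% lower, and the members' median was 0.31, against -0.00 over all tested genes. Sycp1 at 84.2 and 98.6 CPM in triple-knockout cells, against 32.9 and 41.0 CPM in Mettl3 knockout cells, was higher by 1.28 ± 0.19 (adjusted p = 3.24e-07). Hormad1 at 161 and 146 CPM in triple-knockout cells, against 62.4 and 77.3 CPM in Mettl3 knockout cells, was higher by 1.10 ± 0.14 (adjusted p = 2.99e-09). These 2 were the calls kept in every alternative. Smc1b had 25 counts in all in triple-knockout cells, against 3 in Mettl3 knockout cells, a ratio of 8.88 (95% counting interval 2.71 to 46.0; adjusted p = 0.000223), and it passed the low-count filter through the triple knockout alone, where it is high. Taf7l (1.01 ± 0.21, adjusted p = 0.000745), Meioc (1.12 ± 0.30, adjusted p = 0.0125) and Sycp3 (0.63 ± 0.16, adjusted p = 0.00596) were also higher. Syce1, at 170 and 148 CPM in triple-knockout cells, against 209 and 203 CPM in Mettl3 knockout cells, was the 1 lower gene (-0.37 ± 0.10, adjusted p = 0.0228). Meioc and Syce1 lost their calls without either Mettl3 knockout library and without triple-knockout replicate B, with Meioc at 1.05, 1.21 and 1.05 and Syce1 at -0.36, -0.40 and -0.27. The Sycp3 call was lost without Mettl3 knockout replicate A (0.41, adjusted p = 0.189) and without triple-knockout replicate B (0.54, adjusted p = 0.120). Of 13 other meiotic prophase genes 3 were higher and 0 lower, with a median of 0.20 (Six6os1 1.75 ± 0.24, Ccnb1ip1 1.48 ± 0.26, Rec114 0.47 ± 0.14). Of 8 primordial germ cell genes 2 were higher (Dazl 1.71 ± 0.12, Dnd1 1.30 ± 0.35) and 1 lower (Tfap2c -1.14 ± 0.14). Of 15 mitotic counterparts 3 were higher (Msh6 0.23 ± 0.07 among them) and 1 lower (Stag1 -0.68 ± 0.20), and of 16 repressors 1 was higher (Uhrf1 0.31 ± 0.10) and 2 lower (Max -0.53 ± 0.13, Ring1 -0.92 ± 0.21).

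Each single reader knockout changed few members, and Hormad2 was lower in each. In Ythdf1-/- cells 1 of 21 members rose and 1 fell, where 3.45% of all tested genes were called (1.95% higher, 1.50% lower), with a median of 0.13 over members and -0.00 over all tested genes. In Ythdf2-/- cells 0 rose and 1 fell (1.91% of all tested genes called, 0.837% higher and 1.07% lower), with a member median of 0.15 and 0.00 over all tested genes. In Ythdf3-/- cells 2 rose and 1 fell (2.84% of all tested genes called, 1.74% higher and 1.10% lower), with a member median of 0.30 and -0.00 over all tested genes. Hormad2 had 18.9 and 27.3 CPM in Ythdf1-/-, 19.4 and 18.6 CPM in Ythdf2-/- and 18.4 and 23.9 CPM in Ythdf3-/- cells, all below the 43.2 and 54.4 CPM of WT cells. Its log2 changes were -1.07 ± 0.22 (adjusted p = 0.00137), -1.36 ± 0.24 (adjusted p = 0.000221) and -1.18 ± 0.25 (adjusted p = 0.00286) in Ythdf1-/-, Ythdf2-/- and Ythdf3-/- cells. All 3 are read against the same 2 WT libraries. The Hormad2 call was lost without WT replicate B in Ythdf1-/- (-0.90, adjusted p = 0.110) and Ythdf3-/- cells (-1.01, adjusted p = 0.0977), and likewise without replicate A of either knockout (-0.83 and -1.02). Dpep3 had 54.4 and 54.7 CPM in Ythdf1-/- cells (1.25 ± 0.19, adjusted p = 2.95e-05) and 46.9 and 54.5 CPM in Ythdf3-/- cells (1.16 ± 0.21, adjusted p = 0.00158), against 21.6 and 24.1 CPM in WT cells. In Ythdf2-/- cells Dpep3 had 44.0 and 39.6 CPM, a log2 change of 0.86 ± 0.21 with an adjusted p of 0.054. Without Ythdf3-/- replicate B the Dpep3 call in Ythdf3-/- cells was lost (1.03, adjusted p = 0.162). Hormad1 rose in Ythdf3-/- cells, with 126 and 113 CPM against 77.5 and 58.0 CPM in WT cells (0.81 ± 0.13, adjusted p = 0.000186), a call lost without WT replicate B (0.61, adjusted p = 0.0667). It had 97.8 and 90.7 CPM in Ythdf1-/- and 56.9 and 51.2 CPM in Ythdf2-/- cells and was called in neither.

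DESeq2 called 0 members in each single knockout, where edgeR at an unadjusted p under 0.05 gave 4, 5 and 9 of 21 members and 1775, 1412 and 1731 of 11951 genes in Ythdf1-/-, Ythdf2-/- and Ythdf3-/- cells. Of 13 other meiotic prophase genes 0 were called in each, with medians of 0.18, 0.20 and 0.31 in Ythdf1-/-, Ythdf2-/- and Ythdf3-/- cells. Dppa3 rose in Ythdf1-/- (1.85 ± 0.15) and Ythdf2-/- cells (1.02 ± 0.17), Dazl in Ythdf1-/- (0.57 ± 0.11) and Ythdf3-/- cells (0.55 ± 0.12), and Ddx4 in Ythdf1-/- cells (1.12 ± 0.23), so 3, 1 and 1 of 8 primordial germ cell genes were called. Of 15 mitotic counterparts 2 rose in Ythdf1-/-, 1 in Ythdf2-/- and 2 in Ythdf3-/- cells, Msh6 in all 3, and of 16 repressors 1 rose, L3mbtl2 in Ythdf3-/- cells (0.34 ± 0.09). Markers of 2-cell-like cells summed to 497 and 549 CPM in Ythdf1-/-, 114 and 101 CPM in Ythdf2-/- and 269 and 246 CPM in Ythdf3-/- cells, against 52.2 and 45.5 CPM in WT cells, and their part in these values was not tested.

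A contrast of the triple knockout against the sum of the 3 single changes asked which members depart from additivity. Of 21 members 1 was above the sum and 1 below it, where 1.88% of all tested genes were called (0.845% above, 1.04% below), and the members' median was -0.18, against -0.00 over all tested genes. Hormad2 stood above the sum by 2.76 ± 0.49 (adjusted p = 0.000357), since the triple knockout fell by 0.85 and the singles by 1.07, 1.36 and 1.18. Dpep3 stood below it by 1.92 (SE 0.41, adjusted p = 0.0143), with 1.35 in the triple knockout and 1.25, 0.86 and 1.16 in the singles. Neither gene's triple-knockout change thus exceeded its single changes as their sum would. The Hormad2 call was lost without triple-knockout replicate B (2.34, adjusted p = 0.05001) and the Dpep3 call without WT replicate A (-1.80, adjusted p = 0.162), WT replicate B (-2.09, adjusted p = 0.0785) or Ythdf3-/- replicate B (-1.80, adjusted p = 0.0749). Sycp1 (0.27 ± 0.40), Hormad1 (0.22 ± 0.28) and Syce1 (0.71 ± 0.25, adjusted p = 0.313) were not called against the sum. Of the 4 lists 1 gene was called, Dppa3, below the sum by 1.50 (SE 0.33, adjusted p = 0.0197), among 8 primordial germ cell, 13 other meiotic prophase, 15 mitotic and 16 repressor genes, whose medians were -0.38, -0.07, -0.10 and 0.00.

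In GV oocytes that had lost Mettl3, 8 of 25 tested members were higher and 6 lower than in controls. All 3 tested germline cohesin subunits were higher (Smc1b, Rad21l, Stag3), though Rad21l was not called with the replicate number as a block (1.24, adjusted p = 0.0648), nor Rad21l and Stag3 without controls 2 and 3 (0.99 and 1.01). The axis and the synaptonemal complex split, with Sycp1, Sycp3, Syce1 and Hormad1 higher and Sycp2 and Hormad2 lower, and of the recombination genes Dmc1, Mei4 and Msh4 were lower and Prdm9 higher. Over all 13551 tested genes 28.8% were called, 15.4% higher and 13.4% lower, and the median log2 change was 0.00 over members and 0.04 over all tested genes. Dmc1 passed the low-count filter through the controls alone, and Msh5 and Mei1 through the knockouts alone.

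Syce1 had 53.5, 46.5 and 23.0 CPM in conditional knockout oocytes, against 2.57, 1.47, 1.57 and 2.71 CPM in controls. Its lowest knockout library stood far above its highest control, and the log2 change was 4.28 ± 0.40 (adjusted p = 0.000247). Hormad1 had 28.2, 25.1 and 18.3 CPM in conditional knockout oocytes, against 0.903, 1.71, 1.26 and 1.87 CPM in controls (4.06 ± 0.38, adjusted p = 0.000247). Sycp1 had 60.3, 86.2 and 110 CPM in conditional knockout oocytes, against 13.8, 22.3, 21.5 and 18.5 CPM in controls (2.17 ± 0.28, adjusted p = 0.000845). In fold terms these were 19.4-fold, 16.7-fold and 4.50-fold higher for Syce1, Hormad1 and Sycp1. Sycp3 had 61.0, 70.7 and 71.9 CPM in conditional knockout oocytes, against 17.7, 24.0, 17.6 and 19.4 CPM in controls (1.79 ± 0.22, adjusted p = 0.000723). Chpt1, which shares exon bases with Sycp3, had 3.63, 11.6 and 11.3 CPM in conditional knockout oocytes, against 4.17, 16.1, 40.7 and 11.2 CPM in controls and was not called (-1.04 ± 0.70). Syce2, the most abundant member per kilobase, had 436, 419 and 386 CPM in conditional knockout oocytes, against 567, 485, 365 and 489 CPM in controls, overlapped between groups and was not called.

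Smc1b had 67.7, 102 and 95.4 CPM in conditional knockout oocytes, against 23.9, 29.6, 29.3 and 30.7 CPM in controls (1.64 ± 0.22, adjusted p = 0.00115). Stag3 had 11.01, 14.6 and 13.7 CPM in conditional knockout oocytes, against 6.67, 4.04, 5.14 and 5.24 CPM in controls (1.31 ± 0.33, adjusted p = 0.0160). Rad21l, a meiotic kleisin (chr2:151645404-151668533), had 8.55, 10.2 and 11.3 CPM in conditional knockout oocytes, against 5.97, 3.06, 3.99 and 3.27 CPM in controls (1.29 ± 0.37, adjusted p = 0.0286). None of the 3 cohesin genes overlapped between groups, but neither did Trip13 and Tex12, which were not called. The share of all tested genes without overlap is not given here. Rec8 was untested, with 0, 6 and 1 counts in conditional knockout oocytes, against 0, 0, 0 and 1 counts in controls. Prdm9, the methyltransferase that marks recombination hotspots (chr17:15543079-15564354), had 4.02, 3.92 and 3.45 CPM in conditional knockout oocytes, against 2.22, 1.10, 1.36 and 0.936 CPM in controls (1.42 ± 0.47, adjusted p = 0.0457). With the replicate number as a block the Rad21l and Prdm9 calls were lost (1.24, adjusted p = 0.0648, and 1.32, adjusted p = 0.116). The Stag3 call was lost without conditional knockout replicate 2 (1.16, adjusted p = 0.0708) and without control 2 (1.19, adjusted p = 0.0571). The Rad21l call was lost without any 1 of the 3 conditional knockout libraries (1.13 to 1.33, adjusted p 0.0621 to 0.0870), without control 2 (1.17, adjusted p = 0.0887) and without control 4 (1.19, adjusted p = 0.0775). The Prdm9 call was lost without any 1 of the 3 conditional knockout libraries (1.32 to 1.41, adjusted p 0.0792 to 0.123) and without controls 2 (1.32, adjusted p = 0.120), 3 (1.34, adjusted p = 0.0675) or 4 (1.26, adjusted p = 0.111), with RLE scaling (1.34, adjusted p = 0.0549) and with no filter (1.41, adjusted p = 0.0558).

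Dmc1, the meiotic strand exchange recombinase (chr15:79561497-79605109), had 0, 1 and 1 counts in conditional knockout oocytes, against 76, 5, 28 and 68 counts in controls. In controls its level was 82.9-fold higher by summed counts (95% counting interval 22.6 to 690; adjusted p = 0.00476). All 3 knockout libraries lay below every control, of which control 2 was the lowest at 0.612 CPM. Dmc1 entered the test through the controls, where it is high, so its call had a difference built in, and it was not tested when control 1, 3 or 4 was left out. Mei4, needed for DNA break formation (chr9:81863670-82206007), had 27.8, 27.1 and 26.9 CPM in conditional knockout oocytes, against 55.0, 58.7, 47.4 and 49.96 CPM in controls (-0.95 ± 0.21, adjusted p = 0.00871). Msh4, of the pair that stabilises crossover intermediates (chr3:153857149-153906138), had 23.4, 27.2 and 14.4 CPM in conditional knockout oocytes, against 67.0, 43.8, 33.8 and 41.0 CPM in controls (-1.09 ± 0.32, adjusted p = 0.0304). Both were thus lower in every knockout library, whereas Msh5, the other gene of that pair, had 5.37, 1.29 and 2.25 CPM in conditional knockout oocytes, against 0.486, 0.979, 1.15 and 0.936 CPM in controls and was not called (1.76 ± 0.61, adjusted p = 0.0545). Sycp2, the axis partner of SYCP3 (chr2:178345293-178407685), had 33.0, 68.5 and 74.6 CPM in conditional knockout oocytes, against 111, 136, 138 and 140 CPM in controls (-1.16 ± 0.29, adjusted p = 0.0156). Hormad2 had 0.168, 2.06 and 0.901 CPM in conditional knockout oocytes, against 9.17, 4.89, 3.15 and 4.58 CPM in controls (-2.38 ± 0.76, adjusted p = 0.0416). Both pairs of axis partners, Sycp3 with Sycp2 and Hormad1 with Hormad2, therefore moved in opposite directions. Tex14, a protein of the bridges between germ cells (chr11:87405065-87555823), had 9.33, 11.1 and 12.3 CPM in conditional knockout oocytes, against 26.3, 32.2, 43.9 and 17.7 CPM in controls (-1.46 ± 0.34, adjusted p = 0.0122). The Hormad2 and Msh4 calls were lost without conditional knockout replicates 1 or 3 and without controls 1, 2 or 4, with Hormad2 at -2.46 to -1.89 (adjusted p 0.0660 to 0.0960) and Msh4 at -1.21 to -0.87 (adjusted p 0.0505 to 0.0660).

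**Figure D2:**
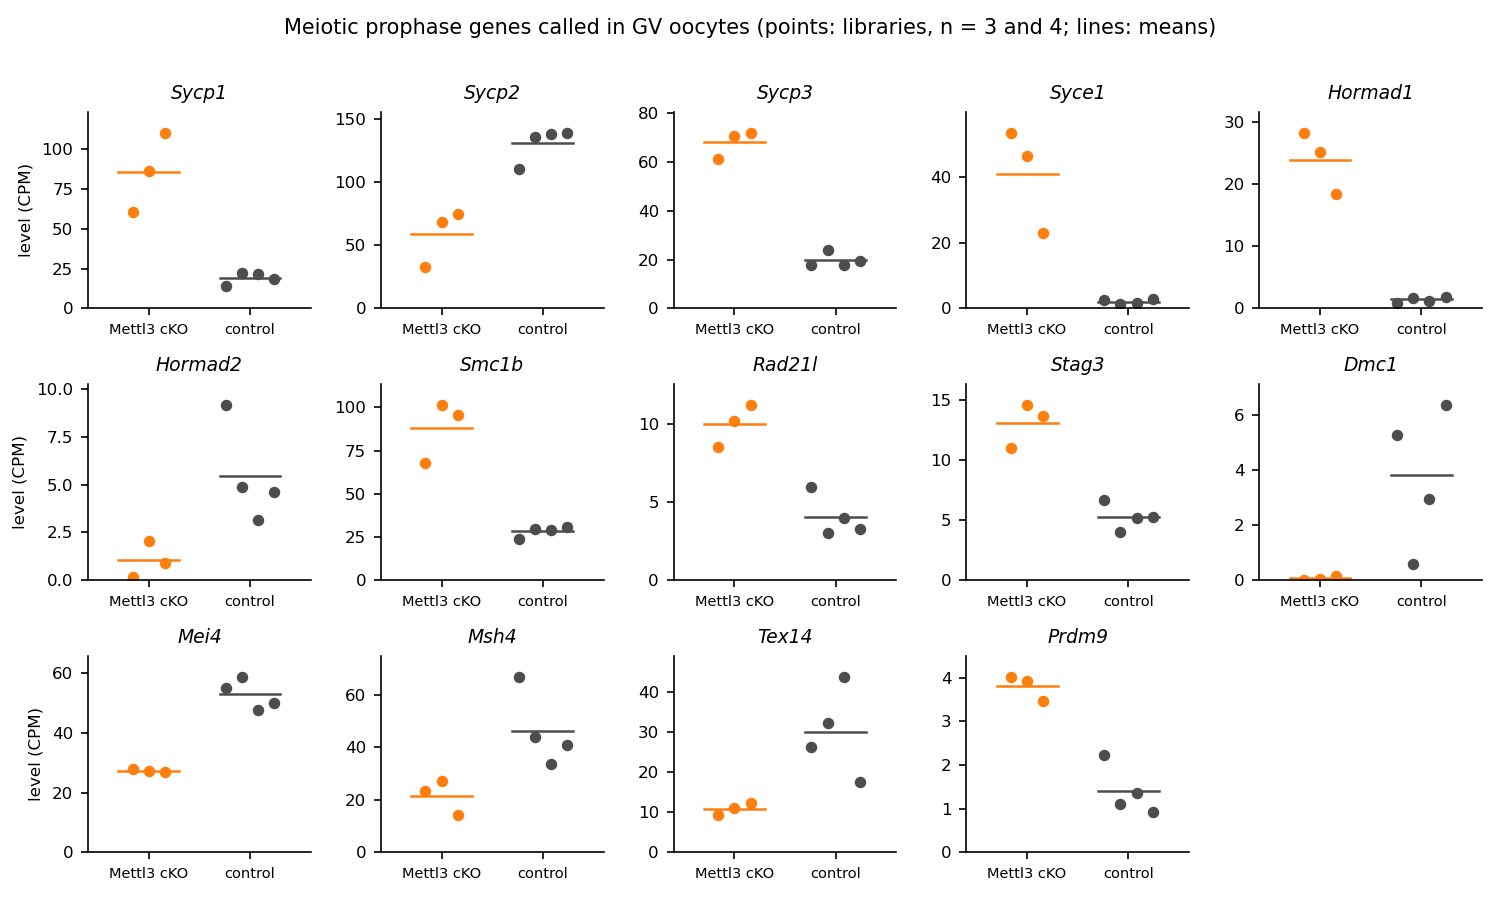
Levels (CPM, linear axis from 0) of the 14 members called in GV oocytes. Each point is 1 library, 3 Mettl3 conditional knockout (cKO) and 4 control, and each line a group mean. Syce1 (23.0 to 53.5 CPM in cKO, 1.47 to 2.71 CPM in controls) and Hormad1 (18.3 to 28.2 CPM in cKO, 0.903 to 1.87 CPM in controls) are furthest apart among the higher genes, and Dmc1 (0 to 0.150 CPM in cKO, 0.612 to 6.36 CPM in controls) among the lower.

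The 11 members not called in GV oocytes ranged from -1.32 (Hfm1, adjusted p = 0.157) to 1.76 (Msh5). Trip13 had 36.7, 39.1 and 39.7 CPM in conditional knockout oocytes, against 14.4, 23.2, 31.8 and 17.9 CPM in controls, without overlap, and missed the threshold (0.82 ± 0.29, adjusted p = 0.0611). Tex12 had 29.8, 34.7 and 23.7 CPM in conditional knockout oocytes, against 41.1, 52.9, 40.5 and 45.7 CPM in controls (-0.61 ± 0.23, adjusted p = 0.0738), without overlap, and was called with DESeq2 (-0.69, adjusted p = 0.0146) and with RLE scaling (-0.70, adjusted p = 0.0486). Tex15 had 155, 260 and 246 CPM in conditional knockout oocytes, against 177, 361, 705 and 258 CPM in controls and overlapped between groups (-0.77 ± 0.43). Mei1 (1.51 ± 0.59), Mlh3 (0.51 ± 0.46), Dpep3 (0.00 ± 0.33), Tex11 (-0.12 ± 0.25) and Meioc (-0.59 ± 0.43) were not called. Meiob and Taf7l were untested, and 5 symbols, Stra8 and Spo11 among them, were not analysed in GV oocytes.

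**Figure D3:**
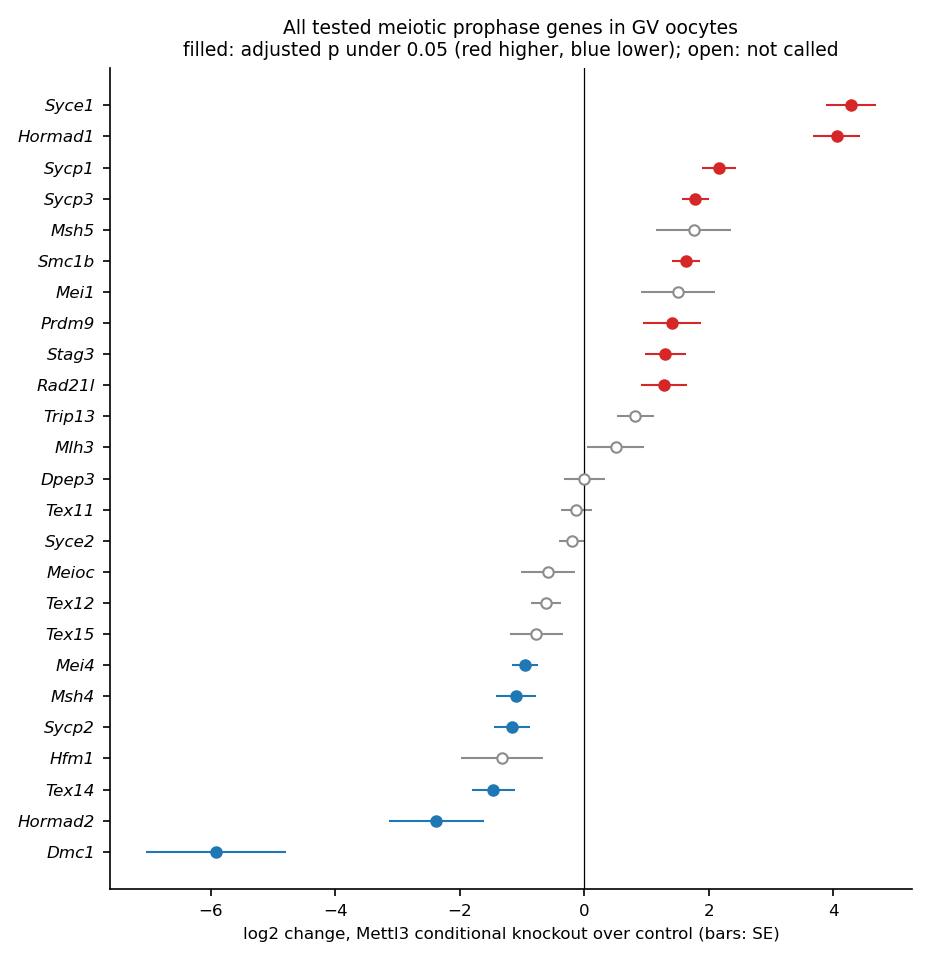
Log2 change of each of the 25 tested members in GV oocytes, Mettl3 conditional knockout over control, in order of size. Points are fitted changes, bars are 1 standard error, and filled points passed an adjusted p under 0.05 (red higher, blue lower). The values run from Syce1 at 4.28 to Dmc1 at -5.91, with 8 filled points on the right and 6 on the left.

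Among 14 tested other meiotic prophase genes 3 were higher and 1 lower in conditional knockout GV oocytes, with a median of 0.21. Ccnb1ip1 averaged 25.9 CPM in conditional knockout oocytes and 7.58 CPM in controls (1.77 ± 0.30, adjusted p = 0.00280), Rec114, a MEI4 partner, rose by 1.06 ± 0.33 and Speedya, a telomere-bound kinase activator, by 2.00 ± 0.66. Psmc3ip, a cofactor of DMC1, averaged 22.3 CPM in conditional knockout oocytes and 54.8 CPM in controls (-1.30 ± 0.27, adjusted p = 0.00741). Of 15 mitotic counterparts 0 rose and 1 fell (Pms2, -1.18 ± 0.36), with a median of -0.14. Of 17 repressors 2 rose (Dnmt3b 1.22 ± 0.27, L3mbtl2 1.18 ± 0.29) and 1 fell (Dnmt3a -0.70 ± 0.22), and of 7 primordial germ cell genes 2 rose (Dnd1 2.51 ± 0.76, Dppa3 1.22 ± 0.20) and 2 fell (Tfap2c -3.08 ± 0.55, Prdm1 -1.31 ± 0.25). The 8 granulosa cell markers, all listed in the table, summed to 23.0, 176 and 48.7 CPM in conditional knockout oocytes, against 265, 592, 1361 and 277 CPM in controls, while 8 oocyte markers summed to 25702, 25333 and 19093 CPM against 26768, 15441, 14018 and 20920 CPM in controls. Of 7 tested granulosa markers 5 were called lower and 0 higher, with a median of -3.43. Of 8 tested oocyte markers 2 were called higher and 2 lower, with a median of 0.18. Granulosa cells surround the oocyte in the follicle, and their part in the members' changes was not tested. Without controls 2 and 3, whose granulosa sums were highest, 12 members were called: Rad21l (0.99), Stag3 (1.01) and Prdm9 (1.14) lost their calls and Trip13 was gained (1.13, adjusted p = 0.0243). This alternative was chosen after seeing the data.

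In post-GV oocytes without Ythdf2, 0 of 24 tested members were called by edgeR, and 0 of 13910 tested genes (0%). At an unadjusted p under 0.05 edgeR gave 3 members, Sycp3, Meioc and Syce1, and 782 genes, and DESeq2 called 0 members and 77 genes. The members' median was 0.06, against -0.09 over all tested genes, and their changes ranged from -1.78 (Hormad1) to 3.40 (Syce1). Syce1 passed the low-count filter through the knockouts alone, and Prdm9 through the heterozygous libraries alone, so both had a difference built in. The authors' batch-adjusted columns place knockout 1 with heterozygous 1 and 2 in one batch and knockout 2 with heterozygous 3 in another: over 5751 genes the shifts they applied correlated at 0.929 to 0.990 within a batch and at -0.985 to -0.968 between batches. The nature of the batches was not stated. The Ythdf2 transcript stood at 197 and 156 CPM in knockout oocytes, against 90.1, 73.2 and 132 CPM in heterozygous oocytes, and gives no check of the labels.

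Sycp3 had 95.8 and 82.5 CPM in knockout oocytes, against 20.8, 21.6 and 45.1 CPM in heterozygous oocytes. Both knockout libraries were above all heterozygous ones, yet the adjusted p was 0.800 (1.61 ± 0.47). Within the batches the difference was 2.17 and 0.87, and with batch as a term in the fit Sycp3 was called (1.64 ± 0.38, adjusted p = 0.0348). Meioc had 11.6 and 23.4 CPM in knockout oocytes, against 2.20, 4.50 and 3.66 CPM in heterozygous oocytes, without overlap (2.34 ± 0.62, adjusted p = 0.738). Its within-batch differences were 1.85 and 2.64, and it too was called with the batch term (2.19 ± 0.52, adjusted p = 0.0416). Syce1 had 27 and 25 counts in knockout oocytes, against 3, 1 and 6 counts in heterozygous oocytes, higher in both knockouts (3.40 ± 0.96, adjusted p = 0.800). Its values carry the difference built in by the filter. With the batch term Syce1 stood at 3.39 ± 0.86 (adjusted p = 0.0557), and its within-batch differences were 3.13 and 2.30. The batch term called 258 genes in all. Chpt1 at 14.1 and 15.0 CPM in knockout oocytes, against 11.4, 28.8 and 10.4 CPM in heterozygous oocytes, overlapped between groups, unlike Sycp3.

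Hormad1 was alike in the knockout libraries of both batches and far apart among the heterozygous libraries of post-GV oocytes: it had 15.9 and 13.5 CPM in knockout oocytes, against 71.4, 78.0 and 2.39 CPM in heterozygous oocytes. Its within-batch differences were -2.22 and 2.44, so no direction can be given. Tex15, at 217 and 27.8 CPM in knockout oocytes, against 111, 128 and 98.2 CPM in heterozygous oocytes, likewise differed by 0.86 in the first batch and -1.81 in the second. Sycp1 had 30.1 and 58.6 CPM in knockout oocytes, against 13.4, 10.8 and 38.1 CPM in heterozygous oocytes, with 1.31 and 0.62 within batches, and Trip13 had 20.4 and 7.52 CPM against 7.11, 7.23 and 3.61 CPM in heterozygous oocytes, with 1.50 and 1.04. Neither was called in either fit, though Trip13 too was higher in both knockout libraries than in any heterozygous one. Smc1b, Syce2 and Sycp2 overlapped between groups, at 28.4 and 40.4 CPM, 144 and 232 CPM and 175 and 236 CPM in knockout oocytes, against 28.5, 25.3 and 60.5 CPM, 190, 138 and 271 CPM and 177, 134 and 328 CPM in heterozygous oocytes. In each of the 4 lists 0 genes were called, of 14 other meiotic prophase genes, 15 mitotic counterparts, 17 repressors and 7 primordial germ cell genes, with medians of 0.56, 0.24, 0.16 and 0.29. The 8 oocyte markers summed to 9607 and 9809 CPM in knockout oocytes, against 6657, 4106 and 6000 CPM in heterozygous oocytes. The 7 detected of 8 granulosa cell markers summed to 134 and 78.2 CPM in knockout oocytes, against 256, 272 and 105 CPM in heterozygous oocytes, lower in the knockout within each batch, with 0 of 7 called and a median of -1.82. The 2 detected of 4 Leydig cell markers followed the batch, at 598 and 14.8 CPM in knockout oocytes, against 1092, 2325 and 18.0 CPM in heterozygous oocytes, and their part in these values was not tested.

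**Figure D4:**
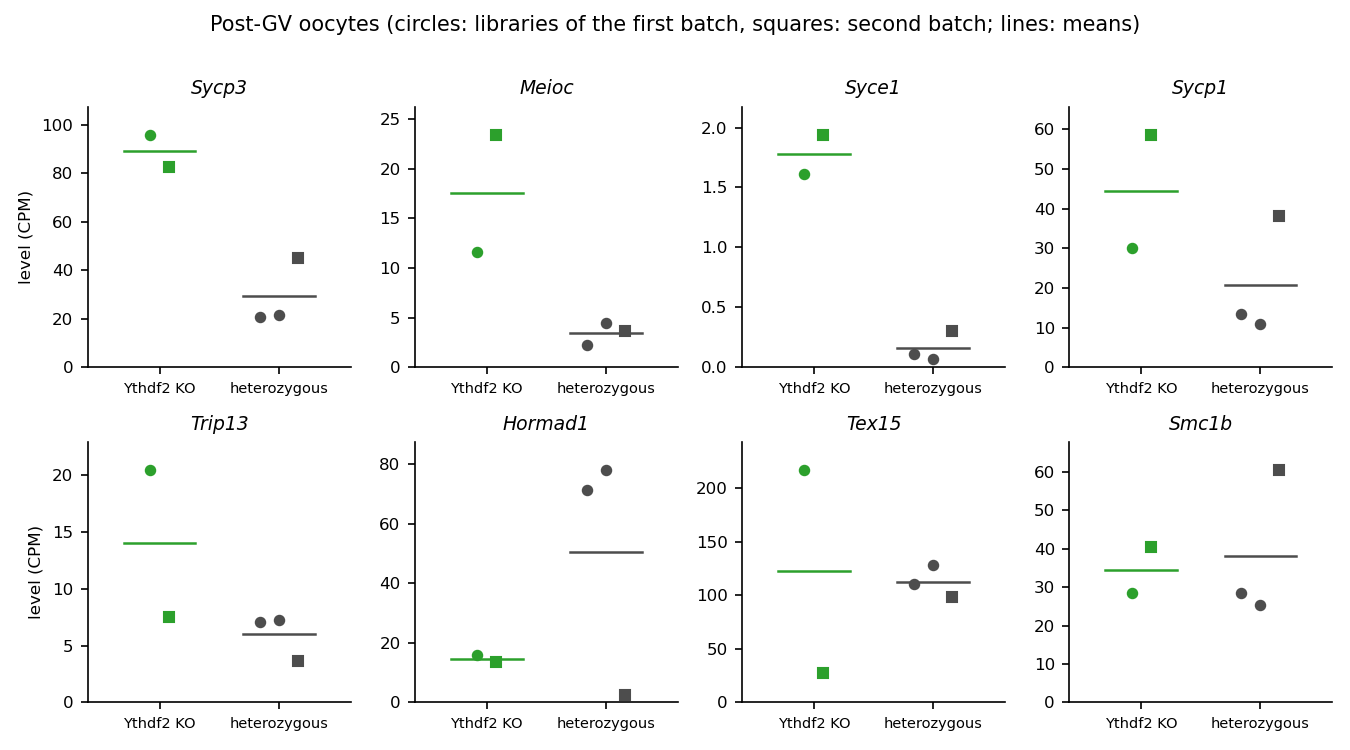
Levels (CPM, linear axis from 0) of 8 members in post-GV oocytes, 2 Ythdf2 knockout and 3 heterozygous libraries. Circles are the first batch, squares the second, and lines group means. Sycp3, Meioc, Syce1 and Trip13 are higher in both knockout libraries than in any heterozygous library, an order whose share over all tested genes is not given here. Hormad1 (71.4 and 78.0 against 2.39 CPM within the heterozygous group) differs between batches in heterozygous oocytes.

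In round spermatids without Ythdf2, 0 of 30 tested members rose and 1 fell, where 4.90% of 16031 tested genes were called (2.25% higher, 2.64% lower). The members' median was -0.18, against 0.08 over all tested genes. The WT group is 1 library, so its spread is taken from the 2 knockout libraries. Hfm1 had 8.78 and 19.2 CPM in knockout spermatids, against 37.0 CPM in the WT library (-1.40 ± 0.36, adjusted p = 0.00995), and both knockouts were below WT. The call was lost with DESeq2 (-1.44, adjusted p = 0.0763) and with a filter of 3 CPM in 2 libraries (-1.33, adjusted p = 0.132).

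The most abundant members in spermatids were not called. Syce1 had 1168 and 1102 CPM in knockout spermatids, against 1541 CPM in WT (-0.44 ± 0.23, adjusted p = 0.293), Smc1b had 958 and 861 CPM against 949.9 CPM in WT (-0.06 ± 0.23), and Stag3 had 453 and 436 CPM against 659 CPM in WT (-0.57 ± 0.23, adjusted p = 0.144). Sycp1 had 209.7 and 186 CPM in knockout spermatids, against 279 CPM in WT, Sycp3 had 87.8 and 68.6 CPM against 127 CPM in WT (-0.70 ± 0.26, adjusted p = 0.0927), and Meioc had 166 and 114 CPM against 224 CPM in WT (-0.68 ± 0.24, adjusted p = 0.0872). In these, Smc1b excepted, both knockout libraries lay below the single WT value. Tex15 at 512 and 628 CPM in knockout spermatids, against 391 CPM in WT (0.55 ± 0.24), Taf7l at 99.98 and 94.0 CPM against 58.4 CPM in WT (0.73 ± 0.27, adjusted p = 0.101) and Syce2 at 133 and 129 CPM against 85.9 CPM in WT (0.61 ± 0.26) lay above it. Hormad1 had 131 and 86.2 CPM in knockout spermatids, against 133 CPM in WT. The share of all tested genes with both knockout libraries on one side of WT is not given here. With a single WT library, such an order alone marks no change. Spo11, the enzyme that cuts DNA to start recombination, had 6.45 and 26.3 CPM in knockout spermatids, against 33.2 CPM in WT, with 1 knockout library well below the others (-1.01 ± 1.21). Rad21l had 11 and 4 counts in knockout spermatids, against 0 in WT. Mei4 was untested, at 1 and 10 counts in knockout spermatids, against 6 in WT.

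**Figure D5:**
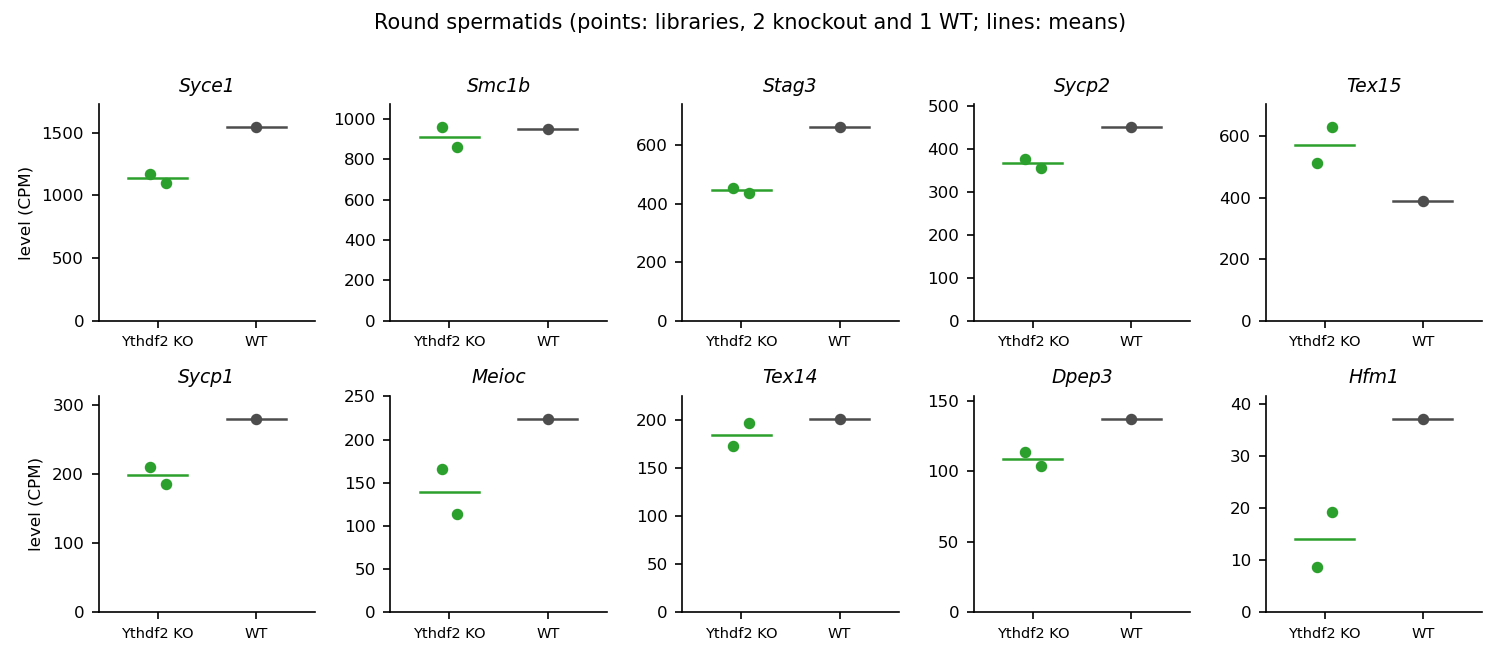
Levels (CPM, linear axis from 0) of 10 members in round spermatids, 2 Ythdf2 knockout libraries and 1 WT library, with lines at group means. Syce1 is the highest at 1168 and 1102 CPM in knockout and 1541 CPM in WT, and Hfm1 (8.78 and 19.2 CPM in knockout, 37.0 CPM in WT) is the 1 member called.

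None of 18 tested other meiotic prophase genes was called in spermatids (median -0.04), nor of 4 primordial germ cell genes (median 0.06). Of 15 mitotic counterparts 1 rose (Stag2, the somatic SA subunit, 0.98 ± 0.25), and of 17 repressors 0 were called higher and 2 lower than in the single WT library (E2f6 -2.20 ± 0.62, adjusted p = 0.0186; Uhrf1 -1.07 ± 0.27, adjusted p = 0.00621). The 8 spermatocyte markers summed to 8877 and 8458 CPM in knockout spermatids, against 9342 CPM in WT, with 3 of 8 called lower (Ccna1 -1.01, Piwil1 -1.11, Mybl1 -1.07) and 0 higher, and the 8 round spermatid markers to 13466 and 9144 CPM against 7891 CPM in WT, all detected. Spermatocytes are the cells in meiotic prophase, and the part of such cells in the members' levels was not tested.

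Side by side, Syce1 was higher in Mettl3-/- stem cells (1.29) and in Mettl3 conditional knockout GV oocytes (4.28), and Hormad2 lower in both (-1.51 and -2.38). Sycp3 was lower in the stem cells (-0.87) and higher in the GV oocytes (1.79). Hormad1 and Sycp1 were higher in the GV oocytes and in the triple-knockout stem cells but not called in Mettl3-/- stem cells. Each tissue was fitted apart and no test of a difference between tissues was made. In the authors' deposited table the adjusted p was under 0.05 for 5 members in the triple knockout (Sycp1, Syce1, Hormad1, Hfm1, Dpep3) and for 4 in Mettl3-/- stem cells (Sycp3, Syce1, Hormad2, Tex15). In the authors' deposited table it was under 0.05 for Dpep3 in Ythdf1-/-, Hormad2 in Ythdf2-/-, and Hormad1 and Dpep3 in Ythdf3-/- stem cells. In the authors' deposited table of GV oocytes it was under 0.05 for 2 members (Syce1, Hormad1), in that of post-GV oocytes for 2 (Sycp3, Meioc) and in that of spermatids for 0.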

How the data were processed

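The deposited tables hold the authors' raw counts for each gene in each library, and every test ran on them. The submitters' processing notes name the mm10 build, STAR 2.4.2a, cutadapt, CASAVA 1.8.2 and DESeq2. Neither counter, annotation nor strand setting is stated. Each table is limited to genes with 6 or more counts in some library. Of the authors' deposited log2 values, the batch-adjusted columns of post-GV oocytes were used to read the batches, and the authors' deposited p-values only to count members. The title of 1 heterozygous post-GV library repeats replicate 2. Its bracketed name says 3, which was used.

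Fits were made table by table with edgeR 4.0.16 in R 4.3.3 (TMM scaling, filterByExpr by group, robust quasi-likelihood F test, Benjamini-Hochberg adjustment over all tested genes, called under 0.05) and limma 3.58.1. Stem cell contrasts came from 1 fit to all 12 libraries of that table. The fit was also run on counts simulated with a fixed spread and no batches, so its outcome supports no p-value here. Alternatives were RLE scaling, no filter, a filter of 3 CPM in 2 libraries, the compared groups alone, DESeq2 1.42.0, the replicate number as a block, a batch term for post-GV oocytes and leaving out each library in turn. In GV oocytes each knockout library correlated most with its same-numbered control (0.625, 0.104 and 0.404). Knockout 3 also correlated with controls 2 (0.198) and 4 (0.117), so the numbers do not settle a pairing. The values reported come from the fit without the block, and blocked values are given where a call changes. Counting intervals are exact, at 95%, and cover counting error only. Gene positions and exon overlaps came from the GENCODE annotation of GRCm38, and promoters from RefSeq. Every member was in scope: members called are named with their values, with the most abundant of the others, and up to 4 called genes of each further list. Some genes of the further lists are counted but not reported here by name. Members and lists were chosen with earlier results of these data known.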

Additional observations from a re-analysis of the deposited data

Results flagged for a closer look

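In control GV oocytes Sycp2 stood at 111 CPM in replicate 1, apart from 136 to 140 CPM in the other controls, and Mlh3 at 9.23 CPM in replicate 3, apart from 5.38 to 5.69 CPM in the others. The rule that flagged them is set to mark about 1 in 20 groups by chance, a rate not measured here.

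For 3 members every Mettl3 knockout library of stem cells lay on one side of WT and every conditional knockout GV library on the other side of its controls. These were Sycp3 (-0.87 in stem cells, 1.79 in GV oocytes), Smc1b (-1.33 and 1.64) and Hfm1 (1.26 and -1.32). With Ythdf2 loss, Hormad2 changed by -1.36 in stem cells and 0.71 in post-GV oocytes, and Hfm1 by 0.40 in stem cells and -1.40 in spermatids. Smc1b in stem cells, Hfm1 in GV oocytes, Hormad2 in post-GV oocytes and Hfm1 in Ythdf2-/- stem cells were not called. The share of all genes that split between tissues in this way is not given here, and these differences were not tested.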

How the results depend on the processing

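No member changed sign where it was called, in any alternative run. DESeq2 called fewer genes in stem cells: members and all genes numbered 0 and 56 in Ythdf1-/-, 0 and 11 in Ythdf2-/-, 0 and 29 in Ythdf3-/-, 5 and 785 in the triple knockout, 4 and 1241 in Mettl3-/-, 2 and 678 in the triple against the Mettl3 knockout and 0 and 5 against the sum of singles. DESeq2 called 15 members and 4968 genes in GV oocytes, 77 genes in post-GV oocytes, and 0 members and 398 genes in spermatids, where the filter of 3 CPM left 0 and 159. With the compared groups alone, 2 members were called in Ythdf2-/- stem cells. In post-GV oocytes the batch term called 2 members and 258 genes. With the replicate number as a block, 3 genes were called in post-GV oocytes and 12 members and 4540 genes in GV oocytes, where control 4 has no partner, and the block changed no member's call in stem cells (11 in the triple knockout), whose replicate letters share only a letter. No paired analysis was possible in spermatids because WT has 1 library, and leaving out a library there would leave no residual degrees of freedom, so it was not run.

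Leaving out each library in turn, members and all genes called ranged from 9 to 14 and 2254 to 4243 in GV oocytes, 9 to 11 and 1799 to 2235 in the triple knockout, 5 to 7 and 2319 to 2819 in Mettl3-/-, 4 to 7 and 1352 to 1672 in the triple against the Mettl3 knockout, and 1 to 2 and 83 to 199 against the sum. They ranged from 1 to 3 and 193 to 237 in Ythdf1-/-, 1 to 1 and 54 to 123 in Ythdf2-/-, 1 to 3 and 112 to 200 in Ythdf3-/- stem cells, and 0 to 0 and 0 to 1 in post-GV oocytes. Leaving out 1 library also gained calls: Stag3 in Mettl3-/- (0.65) without WT replicate B, Hormad1 in Ythdf1-/- (0.71) without WT replicate A, and in GV oocytes Hfm1 (-2.51) without conditional knockout replicate 3, Mei1 (1.95) without control 1, and Trip13 (0.98) and Tex12 (-0.74) without control 3. The causes were not tested. RLE scaling moved the share of higher calls in GV oocytes to 46.9%, against 53.5% with TMM. Smc1b, Tex12, Meiob, Mei4 and Syce3 had too few stem cell counts for small differences to be detectable.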
